A study of Arabidopsis thaliana with 16 samples.

Results

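The transcripts described here were higher in Arabidopsis cells given TA, while their means in cells given IXB were less than 0.3 log2 above controls. They are 50 of the 22746 probe sets tested, a probe set being the group of array probes that measures 1 transcript. A probe set was a member when its mean over 4 TA arrays lay at least 0.7 log2 above the mean over 4 methanol arrays, when all 4 TA values were above all 4 methanol values, and when its mean over 4 IXB arrays was less than 0.3 log2 above the methanol mean. Of the 436 probe sets that met both TA conditions, 386 had a larger IXB difference and 50 were members. The members were thus chosen by the measured differences of both compounds from methanol, and these differences are given as a description, with no test.

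RNA came from dark-grown suspension cells of Arabidopsis thaliana, ecotype Landsberg erecta, and was hybridised to Affymetrix arrays. The treatment, 2 µM TA, 100 nM IXB or methanol alone, began on day 3 of a sub-culture and lasted 6 h. Every culture received 20 µL of methanol, the solvent. Thaxtomin A (TA), a toxin of Streptomyces that causes potato scab, and isoxaben (IXB), a synthetic herbicide, are both known as inhibitors of cellulose synthesis; the labels give only the abbreviations. Each group had 4 replicates, each pooled from 2 flasks of 100 mL, and nothing says that they came from separate parent cultures, so p-values given below measure only the spread between these samples. The 4 methanol arrays are shared: they appear once in a TA set and once in an IXB set of values, whose column medians ran from 4.76 to 4.85 and from 5.204 to 5.302 log2, so each compound was set against methanol within its own set. Of the cell type markers measured, the root hair genes EXPA7 and EXPA18 read 2.95 and 3.02 log2 with methanol, and both count as dim (a mean under 5 log2). The 4 genes of dividing cells (AUR1, AUR2, TOPII and AT4G14330) read between 6.28 and 8.65, and RCA, the activase of the photosynthetic enzyme Rubisco, read 9.13 log2 in these dark-grown cells. Levels of different probe sets are not comparable with each other, so these values do not settle what the cells are. In a bulk sample, fewer cells of a type and less RNA per cell cannot be told apart.

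When cellulose synthesis is blocked, plant cells are known to remodel pectin and xyloglucan in the wall and to switch on calcium, defence and ubiquitin-ligase genes. Oxygen supply is read in plants through group VII ERF transcription factors, which are degraded in air and persist when oxygen is low, where they raise a core set of transcripts. Autophagy delivers cell contents to the vacuole in vesicles whose membrane carries the small protein ATG8.

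Only 24 of the 50 members are assigned to exactly 1 gene here, and 26 are unnamed. The 24 genes lie on chromosomes 1 (4 genes), 2 (2), 3 (8), 4 (8) and 5 (2). The TA difference of the 50 members ran from 0.71 to 1.48 log2 with a median of 0.81, beside a median of 1.18 in the 386 other raised probe sets and -0.01 over all probe sets. Their IXB difference ran from 0.05 to 0.30 with a median of 0.23, against 0.68 in the 386 and -0.01 over all. All 50 IXB means therefore lay above the methanol mean, by an amount under the ceiling of the rule, as did 386 of the 386 others and 10504 of all 22746 probe sets. Because the same 4 methanol arrays entered the TA condition, low methanol values raise both differences, and nothing is read from this count. The label "not IXB" holds only in the sense of that ceiling. As a share of the TA difference, the IXB difference had a median of 27.4% in members and 57.8% in the other raised probe sets.

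**Figure D1:**
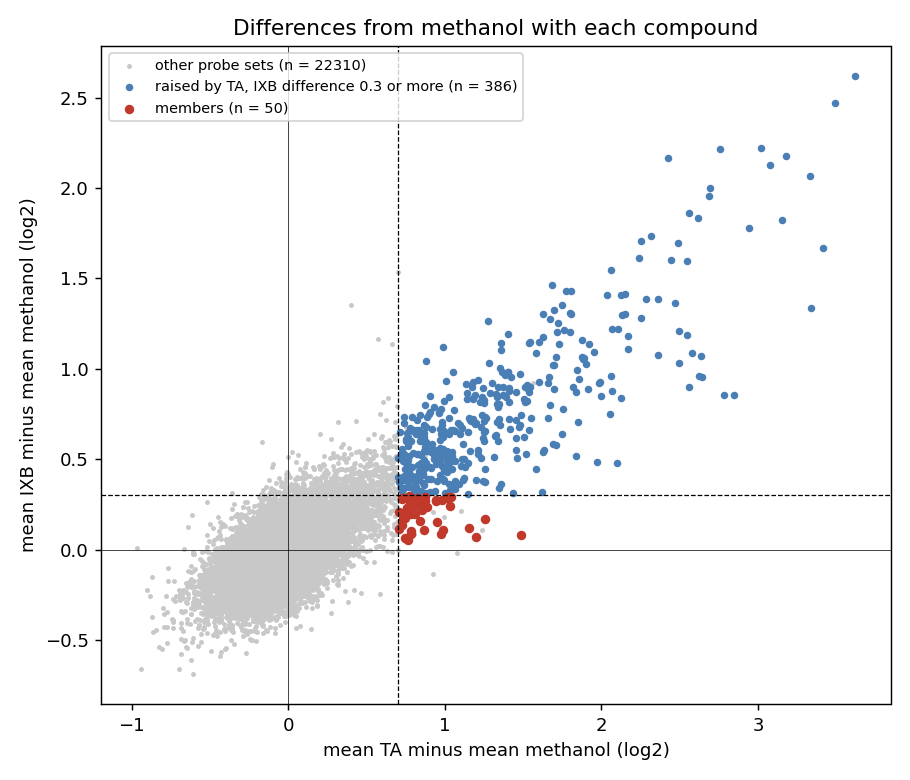
Mean difference from methanol with TA (x axis, log2) and with IXB (y axis, log2) for the 22746 probe sets, with the 50 members in red, the 386 other probe sets that met the TA conditions in blue, and the 2 thresholds of 0.7 and 0.3 as dashed lines. The members form the lower edge of a continuous cloud, all of them above 0 on the IXB axis; both axes share the methanol arrays.

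Members were found among the smaller TA responses. The rule used both differences, and its fixed ceiling of 0.3 log2 is a smaller share of a larger TA difference. This pattern therefore adds nothing to the rule. Of the 184 raised probe sets with a TA difference from 0.7 to 1 log2, 42 were members (22.8%), of 134 from 1 to 1.5 log2 8 were (5.97%), and of 118 above 1.5 log2 0 were. At the TA threshold the members just inside were 263845_at (0.707) and AT3G06750 (0.708), while 251282_at (0.699) and 262165_at (0.697) lay just outside. At the IXB ceiling the members 253606_at (0.296) and AT4G18950 (0.292) lay just inside, and 252168_at (0.306) and 264960_at (0.308) just outside. Within 0.05 log2 of the ceiling there were 18 members, and 21 raised probe sets lay from the ceiling to that distance above it, so the list has no gap at its edge.

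By limma, 50 of the 50 members passed an adjusted p under 0.05 as higher with TA, where 5.41% of all probe sets did, and all 4 TA arrays were above all 4 methanol arrays in 50 of 50, as the rule demands, beside 7.45% of all. With IXB 0 passed in either direction, where 2.20% of all were called higher and 0.809% lower, and 19 of the 50 had an unadjusted p under 0.05, all of them towards higher values. Over the whole array 1860 of 22746 passed that threshold upwards and 2075 downwards, and 368 of the 386 other raised probe sets were higher. In the direct comparison 44 of 50 were called higher with TA than with IXB, beside 2.72% of all. The rule fixed these contrasts, so the counts add nothing to it. In 8 members all 4 IXB arrays lay above all 4 methanol arrays, beside 293 of the 386 other raised probe sets and 5.35% of all. In 2 members, AT3G10040 and MT1C, 0 IXB arrays did, beside 0 of the 386 and 12795 of all 22746. The IXB ceiling bears on both counts, so nothing is read from them.

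Between the 4 IXB arrays the members did not behave alike. The rule sets no limit on this spread, but it does not leave it free. A low IXB array lowers the IXB mean and so favours membership, and a low methanol array raises the TA difference. The standard deviation (SD) over the IXB arrays had a median of 0.168 log2 in members, 0.199 in the 386 other raised probe sets and 0.109 over all probe sets, and in members it ran from 0.033 to 1.04 log2. For methanol in the same set these medians were 0.149, 0.197 and 0.118 log2, and both medians were lower in members than in the other raised probe sets. IXB replicate 1 was the lowest or the highest IXB array in 35 of 50 members (70%), beside 71.5% of the 386 other raised probe sets and 54.2% of all. In 11 members IXB replicate 1 lay below the methanol mean, and in the other 39 above it. These 11 were singled out after their values were seen, and no test was made on them.

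**Figure D2:**
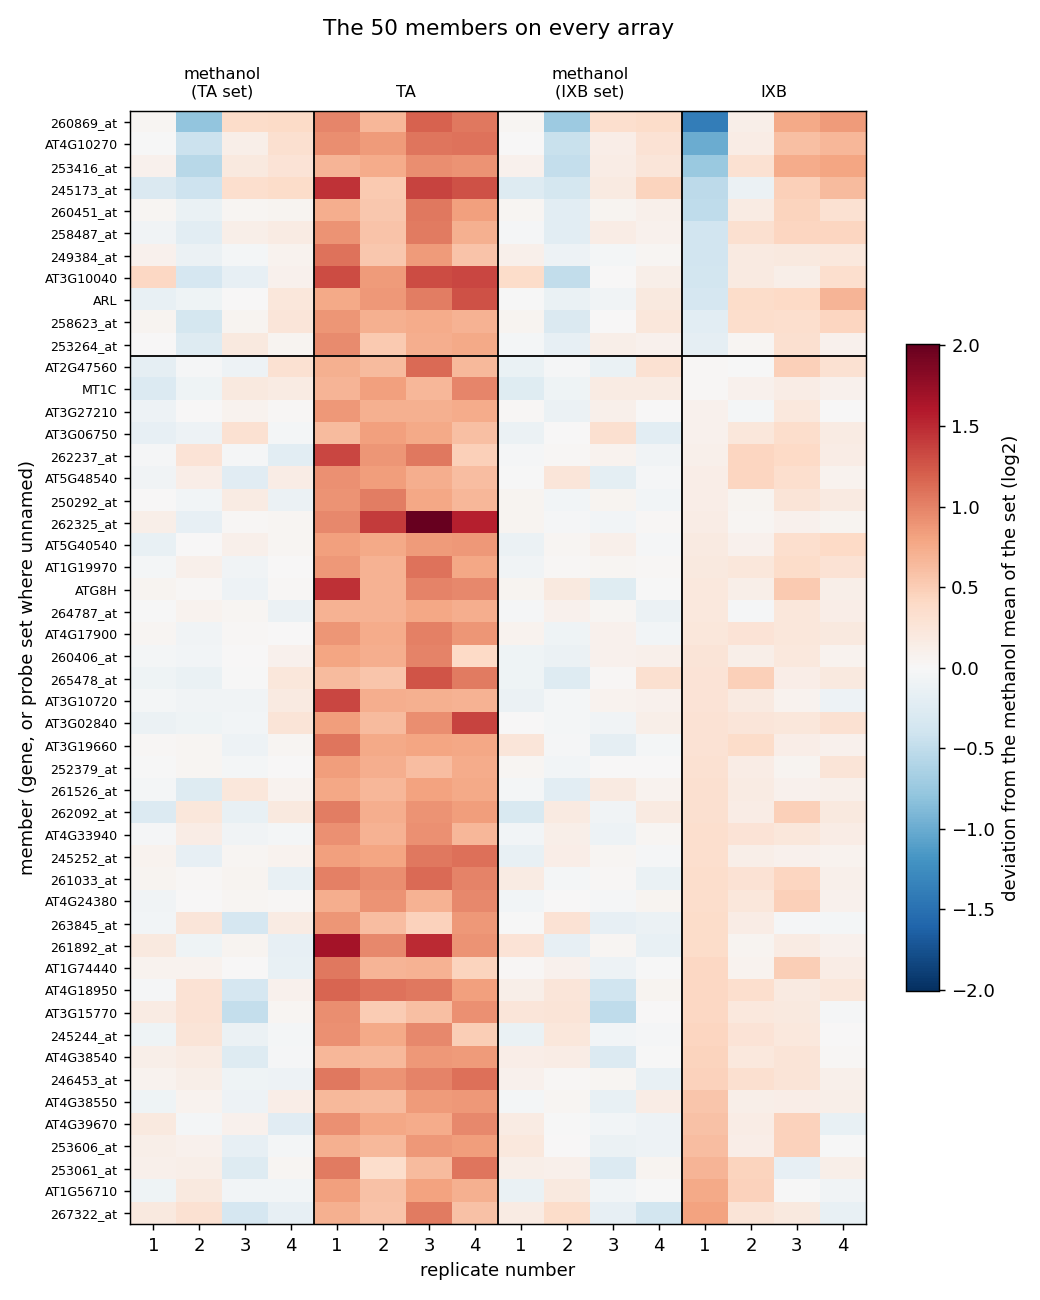
Deviation from the methanol mean of the same set (colour, log2) for the 50 members (rows, ordered by IXB replicate 1) on every array (columns, by group and replicate number; the 4 methanol arrays appear in both sets). Above the horizontal line are the 11 members with IXB replicate 1 below the methanol mean, and in those 11 methanol replicate 2 is also the lowest methanol array.

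In those 11 members, IXB replicate 1 lay between 0.18 and 1.39 log2 below the methanol mean (deviations from -1.39 to -0.18, median -0.39), and in 9 it was below all 4 methanol arrays. IXB replicates 3 and 4 had median deviations of 0.43 and 0.43, and in 9 of the 11 both were above all 4 methanol arrays. Replicate 2 stood between them at a median of 0.18. Methanol replicate 2 was the lowest methanol array in 11 of 11, at a median deviation of -0.29, and in 8 of the 39 others. It was the lowest in 13.2% of the other raised probe sets and in 24% of all. For the other counts in the 11, shares over all probe sets were not computed, so they are not read as particular to members. Without IXB replicate 1, the median IXB difference of the 11 rose from 0.11 to 0.37 log2, and 8 of them then reached the ceiling of 0.3 and were no longer members. Of the 39 others, 1 reached it, and their median IXB difference went from 0.24 to 0.17. The 11 were picked by a low IXB replicate 1, so leaving it out had to raise their IXB difference. This contrast between the 11 and the 39 follows from the split and adds nothing to it. The 11 were also bright, with a median methanol level of 9.34 log2 in the IXB set against 5.21 for the 39, and 0 of the 11 but 18 of the 39 were dim (a mean under 5 log2).

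AT4G10270, a wound-responsive family protein whose transcript belongs to the core low-oxygen set, shows this most clearly among named members. It read 10.37, 10.30, 10.51 and 10.54 log2 on TA replicates 1 to 4 and 9.43, 9.004, 9.56 and 9.76 on the methanol arrays of that set. Its IXB arrays read 8.70, 9.85, 10.30 and 10.37 and the methanol arrays beside them 9.71, 9.25, 9.83 and 9.99. TA and methanol did not overlap (1.98-fold, 10.43 ± 0.11 against 9.44 ± 0.32, SD, n = 4), while IXB spanned the methanol range, with replicate 1 below it and replicates 3 and 4 above it (9.80 ± 0.77 against 9.69 ± 0.32). The IXB difference of 0.11 log2 became 0.48 without IXB replicate 1 and -0.04 without methanol replicate 2.

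AT3G10040 encodes HRA1, a trihelix protein known to restrain the low-oxygen response by binding a group VII ERF. It had the largest TA difference of any named member, 1.20 log2 or 2.30-fold, with TA arrays at 6.89, 6.44, 6.90 and 6.93 and methanol at 6.00, 5.25, 5.42 and 5.68. With IXB it read 5.78, 6.34, 6.28 and 6.50, all within the methanol values of 6.52, 5.67, 6.17 and 6.27. Its IXB difference, 0.07 log2, stayed under the ceiling without IXB replicate 1 (0.22). Differences between IXB and methanol arrays of the same number were -0.74, 0.67, 0.11 and 0.22, but equal numbers are not known to be pairs.

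ARL, ARGOS-like, a protein known to promote cell expansion and organ growth, was the other named member of the 11. TA arrays read 5.86, 5.97, 6.13 and 6.37 log2 and methanol 4.95, 5.02, 5.11 and 5.33, a 1.98-fold difference. IXB arrays read 4.87, 5.58, 5.61 and 5.89 and methanol 5.21, 5.08, 5.14 and 5.42. Replicate 1 was below all methanol arrays and the other 3 above all of them, so that the IXB difference of 0.27 log2 was 0.48 without replicate 1. The other 8 of the 11 are unnamed, and 260869_at was the most extreme, with an IXB range of 2.25 log2 around a difference of 0.09.

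**Figure D3:**
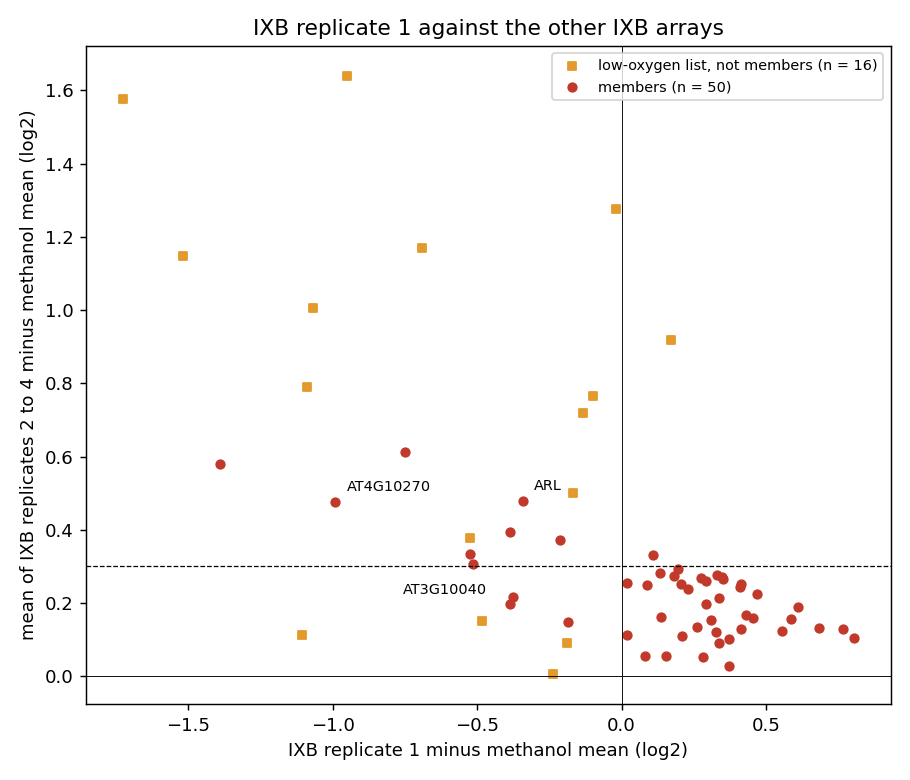
IXB replicate 1 (x axis) against the mean of IXB replicates 2 to 4 (y axis), each as the deviation from the methanol mean in log2, for the 50 members (red) and the 16 measured genes of the low-oxygen list that are not members (orange squares); the dashed line is at 0.3. Most of the 16 low-oxygen genes lie left of 0, the side by which the 11 members were picked.

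The low-oxygen list held 38 genes, of which 18 were measured, that is, had a probe set assigned to exactly 1 gene here. AT3G10040 and AT4G10270 are 2 of these. By limma 15 of 18 rose with TA and 3 did not pass, beside 5.41% of all probe sets called higher. With IXB 0 of 18 passed, beside 2.20% of all called higher, and 3 had an unadjusted p under 0.05, towards higher values. CML38, a calmodulin-like protein, rose by 2.64 log2 with TA (SE 0.25, limma adjusted p = 1.57e-05) and was at 0.95 with IXB (limma adjusted p = 0.156). AT5G66985 rose by 2.10 with TA and was at 0.48 with IXB (SE 0.54). AT5G10040 rose by 2.05 with TA and was at 0.75 with IXB (SE 0.66), not called by limma (adjusted p = 0.614). In the direct comparison of the compounds by limma, 7 of the 18 were higher with TA, beside 2.72% of all probe sets. CML38 was among them (limma adjusted p = 0.00501). AT5G66985 (limma adjusted p = 0.0684) and AT5G10040 (0.238) were not. The mean deviation of the 18 was -0.62, 0.42, 0.90 and 0.84 log2 on IXB replicates 1 to 4 and -0.01, -0.43, 0.12 and 0.32 on methanol replicates 1 to 4. On the TA arrays it was 1.46, 0.98, 1.40 and 1.17. The mean of the low-oxygen genes was thus lowest on IXB replicate 1 and on methanol replicate 2, as in the 11 members. AT3G10040 and AT4G10270 are counted both in the 18 and in the 11, and the 11 were picked by IXB replicate 1. The part of the low-oxygen genes in the membership of the 11 was not tested.

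Regulators and ubiquitin ligases among the other 39 members included AT4G17900, a PLATZ-family zinc-binding transcription factor. It read 6.71, 6.58, 6.85 and 6.71 log2 with TA against 5.87, 5.76, 5.86 and 5.84 with methanol, a 1.85-fold difference. IXB gave 6.51, 6.57, 6.52 and 6.49 against 6.35, 6.19, 6.37 and 6.23, an IXB difference of 0.24 log2 in which all 4 arrays lay above all 4 methanol arrays. AT4G33940, a RING-type ubiquitin ligase, had the same pattern, with TA at 8.00, 7.79, 8.00 and 7.75 against 7.05, 7.23, 7.00 and 7.04. Its IXB arrays, at 7.51, 7.44, 7.40 and 7.32, were just above the methanol values of 7.12, 7.29, 7.07 and 7.21.

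AT2G47560, a RING-type ubiquitin ligase of the ATL family, and AT3G02840, an armadillo-repeat protein, were dim. AT2G47560 read 4.74 ± 0.24 log2 with TA against 3.95 ± 0.21 with methanol, and 4.60 ± 0.23 with IXB against 4.40 ± 0.21 (SD, n = 4). AT3G02840 read 3.63 ± 0.30 with TA against 2.69 ± 0.18, and its IXB arrays had the narrowest range of any named member, 0.074 log2, at 3.25, 3.21, 3.19 and 3.26. All 4 were above the methanol arrays at 2.97, 2.92, 2.88 and 3.07. In all, 18 of the 50 members were dim (36%), against 23.3% of the other raised probe sets and 49.7% of all.

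**Figure D4:**
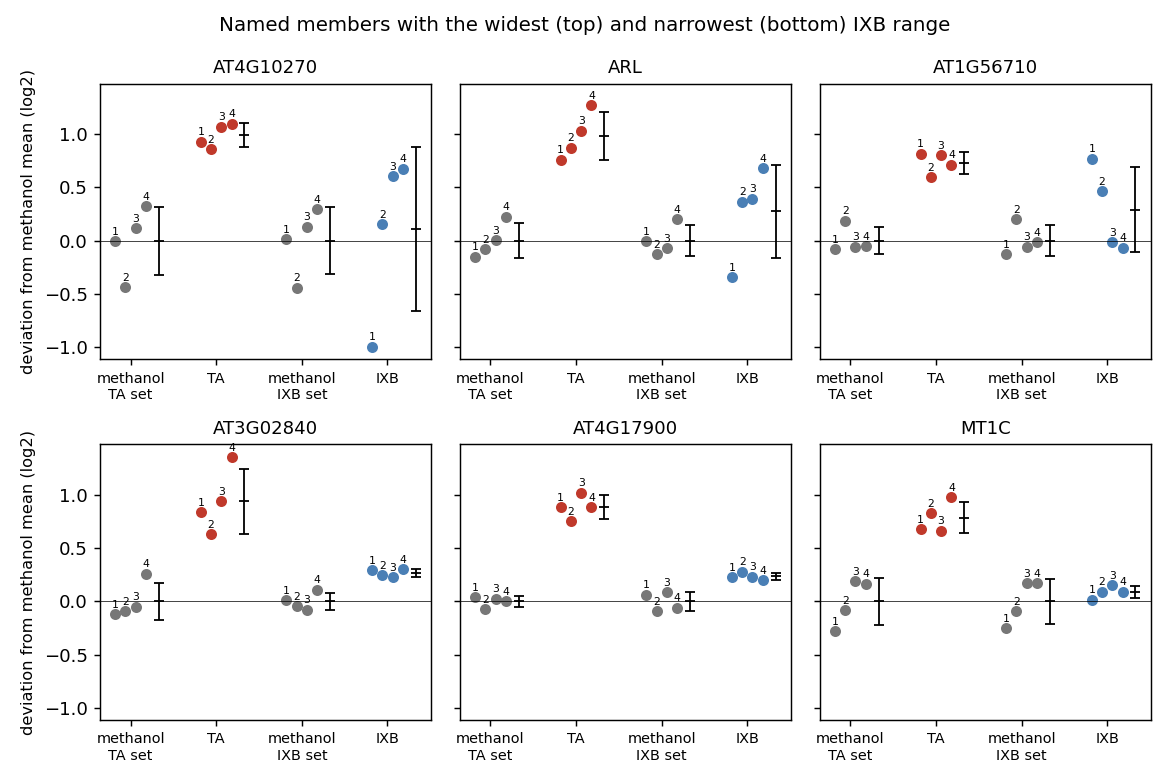
Deviation from the methanol mean of the same set (y axis, log2) on each array (points, labelled by replicate number) for the 3 named members with the widest IXB range (AT4G10270, ARL and AT1G56710, top) and the 3 with the narrowest (AT3G02840, AT4G17900 and MT1C, bottom); bars give mean ± SD (n = 4). All 4 TA points are above the methanol points in every panel, and the IXB points span 0.832 to 1.67 log2 in the top row and 0.074 to 0.136 in the bottom row.

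Protein kinases and a secreted receptor-like protein were also among the members. AT4G18950, a Raf-like kinase of the integrin-linked kinase family, read 7.10, 7.02, 6.99 and 6.76 log2 with TA against 5.90, 6.21, 5.59 and 6.01 (2.06-fold). Its IXB arrays read 6.77, 6.70, 6.54 and 6.59 against 6.48, 6.60, 5.96 and 6.41, and methanol replicate 3 was the low array: without it the IXB difference of 0.29 log2 was 0.16. AT5G40540, another protein kinase, was 1.77-fold higher with TA (7.07 ± 0.05 against 6.25 ± 0.10) and 1.19-fold with IXB (6.68 ± 0.14 against 6.43 ± 0.10). AT5G48540, a secreted protein with the cysteine-rich repeats of a receptor kinase family, was at 5.05 ± 0.13 against 4.28 ± 0.18 with TA and 4.52 ± 0.17 against 4.28 ± 0.18 with IXB.

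ATG8H, one of the ubiquitin-like proteins that coat the autophagosome, was the listed autophagy gene among the named members. It read 4.58, 3.82, 4.11 and 4.08 log2 with TA and 3.17, 3.13, 3.01 and 3.14 with methanol, a 2.04-fold difference at a low level. IXB gave 3.57, 3.48, 3.88 and 3.48 against 3.42, 3.55, 3.11 and 3.35, so those groups overlapped. Of 9 measured autophagy genes, all of the ATG8 family, ATG8H was the only one called higher with TA by limma, beside 5.41% of all probe sets, and 3 were higher at an unadjusted p under 0.05. With IXB 0 passed, and at the unadjusted threshold 0 were higher and 1 was lower. The other 8 differed from methanol by -0.09 (ATG8G) to 0.63 log2 (ATG8E, limma adjusted p = 0.0599) with TA, and read 6.26 to 9.75 log2 with methanol, where ATG8H read 3.11. AT1G19970, a member of the family of receptors that return proteins to the endoplasmic reticulum, had TA arrays at 5.75, 5.57, 5.97 and 5.65 against 4.84, 4.98, 4.80 and 4.89. Its IXB arrays, 5.41, 5.43, 5.58 and 5.50, were all above the methanol values of 5.14, 5.23, 5.25 and 5.23.

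Wall proteins among the named members were of the pectin and glycoprotein kind. AT3G10720, a pectin methylesterase, read 3.95, 3.33, 3.31 and 3.29 log2 with TA against 2.56, 2.53, 2.54 and 2.78, and 3.31, 3.21, 3.10 and 2.93 with IXB against 2.91, 2.99, 3.09 and 3.11. TA replicate 1 was the high array, and IXB and methanol overlapped. AT1G56710, a polygalacturonase-type enzyme, was 6.35, 6.12, 6.33 and 6.25 with TA against 5.45, 5.72, 5.47 and 5.48. Its IXB arrays went the opposite way from AT4G10270, with replicates 1 and 2 high at 6.73 and 6.42 and replicates 3 and 4 at 5.95 and 5.89, next to methanol at 5.83, 6.16, 5.90 and 5.94. AT3G06750, a hydroxyproline-rich glycoprotein, was at 7.08 ± 0.10 against 6.38 ± 0.21 with TA and 6.98 ± 0.12 against 6.78 ± 0.23 with IXB.

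The wall-remodelling list, by contrast, held 0 of the 24 named members. All 11 of its measured genes rose with TA by limma and 10 rose with IXB, beside 2.20% of all probe sets, and 6 were higher with TA than with IXB. AT2G47550, a pectin methylesterase, rose by 3.33 log2 with TA and 2.07 with IXB, and XTH18 by 3.49 and 2.47. ATPMEPCRB, another pectin methylesterase, rose by 2.56 and 1.86. The pectin methylesterase AT3G10720 was thus at 0.87 log2 with TA and 0.11 with IXB, where AT2G47550 and ATPMEPCRB had risen with both compounds. AT3G10720 is dim, at 2.60 log2 with methanol in the TA set, where ATPMEPCRB read 3.28 and AT2G47550 6.36. The difference between these genes was not tested.

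MT1C, a metallothionein, which binds metal ions, read 6.38, 6.53, 6.37 and 6.68 log2 with TA and 5.43, 5.62, 5.89 and 5.87 with methanol (1.72-fold). With IXB it stayed at 6.17, 6.25, 6.31 and 6.25, inside the methanol values of 5.91, 6.06, 6.33 and 6.33, and the IXB difference ran from 0.005 to 0.146 log2 as single methanol arrays were left out. AT3G27210 had the smallest IXB difference of a named member, 0.06 log2, at 5.99, 5.86, 6.12 and 5.91 against 5.92, 5.79, 6.01 and 5.91. With TA it read 6.48, 6.33, 6.32 and 6.35 against 5.51, 5.61, 5.67 and 5.63, so TA stood clear of methanol by 0.65 log2 at its nearest arrays.

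AT4G38540, an FAD-dependent monooxygenase, and AT4G38550, a phospholipase-like protein of the PEARLI 4 family, are neighbouring genes on chromosome 4. Their TA differences were 0.76 and 0.76 log2 and their IXB differences 0.23 and 0.23, although AT4G38540 read 7.76 log2 with methanol and AT4G38550 3.91. The probe set of AT4G38550 is of a design that may also pick up related sequences, which makes its reading uncertain. AT4G39670, of the glycolipid transfer protein family, was at 4.42 ± 0.11 against 3.57 ± 0.18 with TA, and its IXB arrays at 4.72, 4.28, 4.60 and 3.99 spread around methanol at 4.29, 4.13, 4.07 and 4.03.

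Members with a raised neighbour in the genome were also counted. Of 19 members with a measured neighbouring gene, 4 had one among the 436 raised probe sets, where 2.26% of 8983 single-gene probe sets did. They were AT4G38540 and AT4G38550, which neighbour each other, AT2G47560, next to AT2G47550, and AT4G39670, next to AT4G39675. AT4G39675 rose by 1.99 log2 with TA (limma adjusted p = 0.00129) and was at 0.93 with IXB (limma adjusted p = 0.110). No test was made on these counts, in which AT4G38540 and AT4G38550 count each other. All members are themselves raised by TA, and the share among the other raised probe sets was not computed. Nothing particular to members is therefore read from them. AT3G27210 lies next to AT3G27220, a gene of the low-oxygen list that rose by 0.50 with TA and was at -0.01 with IXB.

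The remaining named members were AT3G19660 (TA difference 0.85 log2, IXB difference 0.22), AT4G24380 (0.82 and 0.29), AT3G15770 (0.74 and 0.20) and AT1G74440 (0.72 and 0.29). AT4G24380 read 6.79, 6.67, 6.91 and 6.53 with IXB, all above methanol at 6.39, 6.45, 6.42 and 6.50. The 26 unnamed members ran from 0.71 to 1.48 log2 with TA and from 0.05 to 0.30 with IXB. The largest of them was 262325_at, at 3.42, 3.85, 4.46 and 4.01 log2 with TA against 2.56, 2.29, 2.47 and 2.48, a 2.80-fold difference in a dim probe set. Its IXB difference was 0.08 log2.

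Named members were absent from most other lists. The 26 unnamed members could not be matched to any list, and many list genes were not measured, so absence says little about the members. Of 20 lists, low oxygen and autophagy held 3 members together. The early elicitor list had 40 genes, of which 5 were measured and 0 were members. By limma 4 rose with TA, 1 with IXB and 4 were higher with TA than with IXB. For these and the following counts, the shares of all probe sets called higher were 5.41% with TA, 2.20% with IXB and 2.72% for TA over IXB. STZ, a zinc-finger repressor, rose by 2.36 log2 with TA and was at 1.08 with IXB (limma adjusted p = 0.0813). Among its U-box ubiquitin ligases, PUB23 rose with both compounds, by 1.37 with TA and 0.85 with IXB (limma adjusted p = 9.52e-05). PUB22 rose by 1.63 with TA and was at 0.54 with IXB (limma adjusted p = 0.102), and PUB24 rose by 0.35 and was at -0.03. Of 12 calcium-binding genes 5 rose with TA and 2 with IXB. In the dividing-cell list of 4, 3 fell with TA and 1 with IXB, beside 4.70% and 0.809% of all probe sets. Smaller counts came from WRKY factors (2 of 4 with TA, 1 with IXB), phenylpropanoid genes (2 of 4, 2), abscisic acid genes (2 of 4, 0), salicylic acid genes (1 of 2, 0), mitochondrial stress genes (1 of 4, 0) and heat shock genes (1 of 7, 3). None passed with TA or IXB among 8 xenobiotic, 3 sugar starvation, 2 tryptophan, 2 root hair, 1 ethylene, 1 jasmonate and 1 photosynthetic gene by limma. At an unadjusted p under 0.05, 2 xenobiotic genes were higher with TA, and with IXB 1 xenobiotic gene was higher and 1 jasmonate gene lower. The stress NAC list had 0 genes with a probe set assigned to exactly 1 gene here, which does not mean that the array lacks them.

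Leaving out single arrays changed which probe sets were members more than how many. The count ran from 43 to 63, and between 35 and 49 of the 50 were kept in each case. It was 63 without IXB replicate 1, with 41 kept, 9 lost and 22 gained. Members kept in all 12 such cases numbered 11, of which 7 are named: AT3G10040, AT4G17900, AT3G10720, AT1G19970, AT4G33940, AT3G27210 and AT4G38550.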

How the data were processed

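RMA, named without version in the submitters' processing notes, gave the deposited log2 values. It subtracts background, brings arrays to a common distribution and summarises probes, so a shift of all transcripts is not visible and changes of dim transcripts are compressed. The 64 Affymetrix control probe sets were removed from the 22810. The 2 versions of a methanol array correlated at r = 0.9969 to 0.9972, and the ratio of their SDs (IXB set over TA set) had a median of 0.986 in members and 1.05 over all probe sets. The number of arrays limits the precision.

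The rule was applied to group means in Python 3.11.15 (pandas 2.3.3, numpy 2.4.6, figures with matplotlib 3.10.9). For the gene lists and background shares, two-sided moderated tests (lmFit, then eBayes, in limma 3.58.1 under R 4.3.3) were fitted to all 22746 probe sets, with Benjamini-Hochberg adjustment over all of them and a threshold of 0.05. TA and IXB were compared as deviations from the methanol mean of each set. A gene of a list entered by its brightest probe set among those assigned to exactly 1 gene. List genes with no such probe set are not counted as measured, although the array may hold them. On simulated data of 22746 probe sets, 83.6% of 0.5 log2 changes and 100% of 1 log2 changes were recovered for TA against methanol, with 10 false among 199 calls, and for IXB against methanol the same shares with 14 false among 203.

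Names came from the platform's annotation and the TAIR10.1 gene table, which give 1 gene with a locus for 13484 probe sets. Deviations of same-numbered methanol and IXB arrays correlated weakly (r = 0.147, 0.101, 0.132 and 0.144), just above the limit of 0.1 set for pairs. Replicates 2 and 3 correlated higher with another number (0.295 and 0.161), so the numbers are not shown to be pairs. The main limma fits did not pair arrays by number. For methanol and TA r was 0.032, -0.063, 0.295 and 0.078. The labels do not tie numbers to cultures. The planned promoter search was not run, and sequences are not used here.

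Members and gene lists were chosen with earlier results of these data known. Named genes are single-gene members: the 20 with the largest TA difference, those in a list, the 6 with the lowest IXB difference, the 6 with the widest and 6 with the narrowest IXB range, the probe sets at the thresholds, and up to 3 further genes per list. Genes named outside it (AT3G15770, AT1G74440, PUB24, ATG8E, ATG8G, AT3G27220, AT4G39675, the marker genes, 260869_at and 262325_at) were chosen after their values were seen. Alternatives were other thresholds, medians, centring, quantile normalization, removal of dim or cross-binding probe sets, 1 probe set per gene, eBayes settings, a replicate block and leaving out each array.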

Additional observations from a re-analysis of the deposited data

Results flagged for a closer look

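Each of the 50 members was checked in each of 4 groups of 4 arrays for a value standing apart from the other 3 (Dixon's criterion). This marked 15 of 200 groups (7.5%), where the nominal rate is about 1 in 20. That rate is not a background for these groups. The members were chosen by the same values, and the methanol arrays are counted in both sets. The share over all probe sets was not computed, so no excess is read from this count. With IXB, replicate 1 was the marked array in all 4 cases: low in 249384_at (9.494 log2), 258487_at (9.872) and 258623_at (9.885), and high in AT4G38550 (4.874). With TA, AT2G47560 was high in replicate 3 (5.094), AT3G19660 in replicate 1 (6.799) and AT3G10720 in replicate 1 (3.947), and AT3G10040 was low in replicate 2 (6.439). Among methanol arrays of the TA set, replicate 2 was low in 245252_at (3.427) and 260451_at (8.016) and high in AT1G56710 (5.721). Replicate 3 was low in AT3G19660 (5.623), and replicate 4 was high in AT3G10720 (2.780) and low in 261033_at (3.202). In the IXB set, methanol replicate 3 was low in 253061_at (3.847).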

How the results depend on the processing

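The number of members followed the thresholds: it was 178 with a TA difference of at least 0.5 log2, 8 with at least 1, 151 with an IXB difference under 0.5, 13 under 0.15 and 0 under 0. It was 32 without dim probe sets and 24 with 1 probe set per gene, which drops the unnamed members by construction. Other settings kept it within 1.5 times: 59 with overlapping TA and methanol arrays allowed, 51 with medians, 49 with median centring, 50 with quantile normalization and 49 without cross-binding probe sets. Chosen after seeing the data, leaving out IXB replicate 1 and methanol replicate 2 together gave 52 (36 shared), and an IXB difference under 0.3 of the TA difference gave 44 (34 shared). Leaving out single arrays gave 43 to 63. The median SD over IXB arrays was 0.168 log2 and ran from 0.134 to 0.188.

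Over all probe sets, limma called 1230 higher and 1069 lower with TA, 501 and 184 with IXB, and 618 and 467 for TA over IXB. With the replicate block these were 1316 and 1181, 625 and 189, and 687 and 566, so no count moved over 1.5 times. IXB lower was 307 without dim probe sets. Without single arrays, TA higher ran from 1014 to 1144 and lower from 637 to 1137, IXB higher from 319 to 487 and lower from 54 to 152, and TA over IXB from 329 to 677 and from 150 to 535. The cause of these changes was not tested. Among the 21 members named by rule, leaving out 1 IXB or methanol array took the IXB difference to 0.3 or above in 12 and below 0 in 2, AT4G10270 (lowest -0.08) and AT3G10040 (lowest -0.10). The promoter alternative was not run. Signal over background limits the 18 dim members.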
